A study of Homo sapiens with 80 samples.

Results

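COUP-TF and Iroquois transcription factors, the nuclear receptors NR2F1 and NR2F2 and the homeobox proteins IRX1, IRX2, IRX3, IRX4, IRX5 and IRX6, were followed while human pluripotent stem cells were turned into cardiomyocytes. The 8 genes were chosen by name for their part in the identity of heart chambers and were read from all 43388 genes of each expression table. RNA was sequenced in 80 libraries from differentiations that were later classed as high or low purity from the day 16 cardiac troponin T signal in flow cytometry. All cells received CHIR99021, an activator of WNT signalling, on day 0 and then IWP2, which blocks WNT secretion, on day 2 (WTC11) or day 3 (IMR90-4 and H9). Medium with insulin followed from day 6 or 7.

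The multi-omic experiment held 56 poly(A) libraries, all from the induced pluripotent line WTC11. Its 25 high purity libraries were wells of 1 differentiation at passage 52 and its 31 low purity libraries were wells of 1 differentiation at passage 69, so purity, passage and differentiation cannot be told apart there and p-values measure the spread between wells. High and low purity were sampled with 4 and 4 wells on days 0, 2, 4 and 6, with 3 and 4 on day 8, 1 and 4 on day 10, 2 and 4 on day 13, and 3 and 3 on day 16. The RNA-only experiment held 24 total RNA libraries, with 1 high and 1 low purity differentiation in each of 3 lines at 4 stages (day 0, day 2 or 3, day 4 or 5, day 6 or 7). H9, an embryonic stem cell line, had reached passage 58 in the high purity and 55 in the low purity differentiation. IMR90-4, an induced pluripotent line, was at passage 55 and 75, and WTC11 was at passage 81 and 69.

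COUP-TF proteins are orphan nuclear receptors that bind DNA as dimers and mostly act as repressors. In the heart NR2F2 is enriched in atrial over ventricular muscle and holds the atrial programme in place, and both COUP-TF genes respond to retinoic acid and are also used outside muscle, in mesenchyme, veins and nerve tissue. Iroquois proteins are homeobox factors encoded in clustered genes: IRX4 marks ventricular muscle and represses atrial genes, IRX3 and IRX5 shape the conduction system and the repolarisation gradient of the ventricle, and IRX1 and IRX2 are expressed in the ventricular septum.

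The positions below are on GRCh38 (RefSeq), and all 8 genes are protein coding. The COUP-TF genes are unlinked: NR2F1 lies on chromosome 5 from 93583222 to 93594611 and NR2F2 on chromosome 15 from 96326046 to 96340263, both on the plus strand. One Iroquois cluster is on chromosome 5, with IRX4 from 1877413 to 1887179 and IRX2 from 2735635 to 2751677 on the minus strand and IRX1 from 3595832 to 3601403 on the plus strand. Gaps of 848 kb and 844 kb separate its neighbours. The other cluster is on chromosome 16, with IRX3 from 54283304 to 54286787 on the minus strand, then IRX5 from 54930865 to 54934485 and IRX6 from 55324203 to 55330756 on the plus strand, with gaps of 644 kb and 390 kb.

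RefSeq start-site windows matched 5 of the 8 genes, and 4 of them (NR2F1, IRX1, IRX2 and IRX4) had a window at the 5′ end of the gene. IRX1, IRX2 and IRX4 share a cluster, but limma first called IRX4 on a later day than IRX1 and IRX2. NR2F1 moved the other way. The order of calls depends on the method: on reads recovered from TPM, edgeR and DESeq2 called IRX4 on day 2, before IRX1 and IRX2. Because of the limma results the 250 bases before the 5′ start site are shown for these 4. Each is written 5′ to 3′ on the gene's strand, with matches to the TCF/LEF motif CTTTGAT, the site bound by the WNT effectors, in capitals.
NR2F1 (chr5:93582972-93583221, plus strand): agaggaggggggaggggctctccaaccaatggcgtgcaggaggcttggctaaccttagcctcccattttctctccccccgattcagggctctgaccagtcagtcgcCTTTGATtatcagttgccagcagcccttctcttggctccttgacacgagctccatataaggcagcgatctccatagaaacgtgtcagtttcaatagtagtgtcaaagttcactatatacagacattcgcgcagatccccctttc
IRX1 (chr5:3595582-3595831, plus strand): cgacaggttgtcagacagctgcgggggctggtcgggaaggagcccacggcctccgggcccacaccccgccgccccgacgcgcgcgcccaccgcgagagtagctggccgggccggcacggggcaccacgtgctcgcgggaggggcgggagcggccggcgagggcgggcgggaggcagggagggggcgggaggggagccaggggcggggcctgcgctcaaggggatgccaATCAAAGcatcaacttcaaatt
IRX2 (chr5:2751678-2751927, minus strand): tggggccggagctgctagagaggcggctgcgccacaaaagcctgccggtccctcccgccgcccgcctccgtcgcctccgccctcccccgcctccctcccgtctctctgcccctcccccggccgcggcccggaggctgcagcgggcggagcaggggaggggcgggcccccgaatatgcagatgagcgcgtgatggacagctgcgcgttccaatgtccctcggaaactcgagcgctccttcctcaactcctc
IRX4 (chr5:1887180-1887429, minus strand): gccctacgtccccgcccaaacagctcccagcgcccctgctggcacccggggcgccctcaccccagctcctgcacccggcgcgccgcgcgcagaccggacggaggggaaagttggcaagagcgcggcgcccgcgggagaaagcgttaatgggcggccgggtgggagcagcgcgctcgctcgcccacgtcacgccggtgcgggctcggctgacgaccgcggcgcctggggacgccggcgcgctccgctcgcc
With both strands searched, CTTTGAT was found at -144 from the start site in NR2F1 and, as ATCAAAG, at -22 in IRX1. It was in 2.26% of 35116 windows of the same length. No letters of the 4 stretches matched the GATA motif AGATAA (9.17% of windows), the T-box motif AGGTGT (9.57%), the Iroquois motif ACANNTGT (4.71%), the nuclear receptor direct repeat (0.0171%) or the TATA motif TATAAA (10.7%). A match is a description of letters, not of a bound site.

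Reads per library ranged from 6579715 to 18143597 in the multi-omic experiment and from 17990882 to 40357968 in the RNA-only experiment. In 52 of the 55 multi-omic libraries with another well in their group, the most similar library was a well of that group. Levels are given in TPM, a length-scaled unit of transcript abundance, so that levels of different genes can be set side by side. Fold changes are high minus low purity on the log2(TPM + 1) scale after TMM scaling, which understates changes of low genes. A gene was called where its limma adjusted p was under 0.05 and its log2 fold change was 1 or more in either direction. In the multi-omic experiment, shares of all genes stand beside limma calls and well overlaps. Shares are not given for counts at an unadjusted p or for calls on recovered reads. Of the 8 genes, 7 passed the filter of 1 TPM in 3 libraries, and IRX6 did not.

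On day 0 the pluripotent cells held little of any of these mRNAs. NR2F1 and NR2F2 had 0 reads in all 8 wells, which allows at most 3 reads a well. IRX2, a septal Iroquois gene, was the most abundant, at 3.04, 2.89, 2.81 and 3.22 TPM in the high purity wells and 5.46, 4.83, 5.82 and 5.02 TPM in the low purity wells. All low purity wells of IRX2 lay above all high purity wells, the only such case among the 7 genes, against 5.16% of all genes, and no gene had them the other way round, against 16.7%. Its log2 fold change of -0.71 ± 0.16 (SE) had a limma adjusted p of 0.00136 and fell short of the fold threshold. Limma called 0 of 7 genes on day 0, against 1.07% of all genes, with 1 gene at an unadjusted p under 0.05, and edgeR and DESeq2 on recovered reads also called 0.

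On day 2, after CHIR99021, IRX3 was the most abundant of the 8 genes in both differentiations. IRX3 stood at 68.4, 53.8, 50.7 and 64.5 TPM in high purity wells and at 42.2, 47.3, 45.0 and 42.5 TPM in low purity wells. The wells did not overlap, and the log2 fold change of 0.47 ± 0.14 (SE) was under the threshold with a limma adjusted p of 0.00455. IRX4, the ventricular gene, was at 1.36 to 2.33 TPM in high purity and 0.139 to 0.977 TPM in the low purity wells (log2 fold change 0.82, limma adjusted p 0.0143). NR2F1 had 0 reads in all 4 high purity wells and 1 to 3 reads in each low purity well. The 3 reads that a count of 0 allows are a bound for a single well, not for the 4 wells together. Limma again called 0 of 7 genes (5.32% of all genes, 2.25% higher and 3.07% lower in high purity), with 2 at an unadjusted p under 0.05. Here edgeR and DESeq2 on recovered reads each called 2, NR2F1 lower and IRX4 higher in high purity. The high purity wells of 2 genes (IRX3 and IRX4) lay above all low purity wells, against 15.7% of all genes, and those of 1 gene (NR2F1) below them, against 18.3%.

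**Figure D1:**
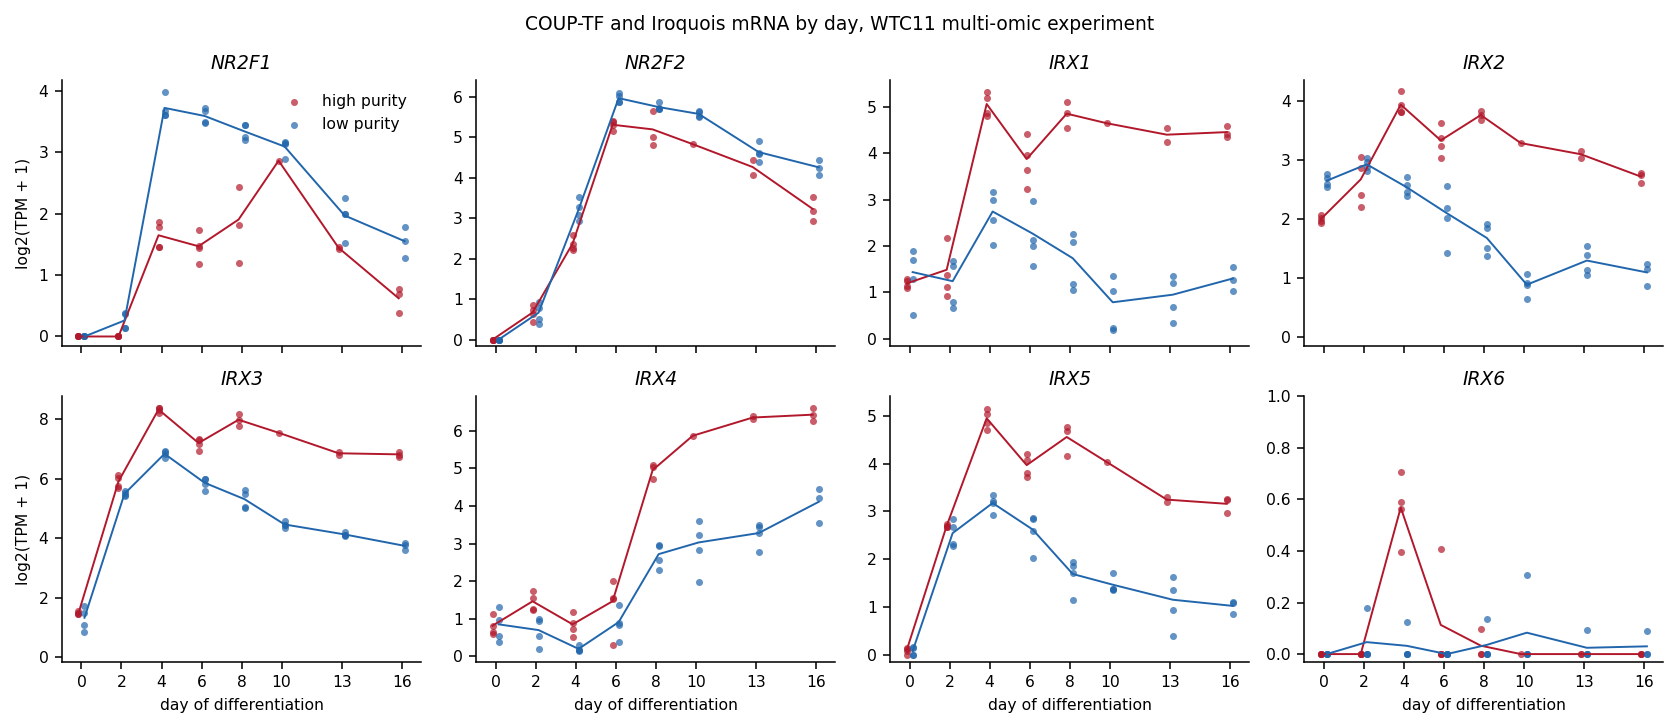
Levels of the 8 genes on the log2(TPM + 1) scale (y axis; each panel has its own range) by day of differentiation in the multi-omic experiment (x axis); points are wells and lines join the log2(TPM + 1) of group means. NR2F1 and NR2F2 lie higher in low purity wells on days 4 to 8, the IRX1, IRX2, IRX3 and IRX5 panels separate in the other direction from day 4, IRX4 wells lie apart at low levels on days 2 and 4, overlap on day 6 and lie apart again from day 8, and IRX6 stays under 1 TPM.

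On day 4, after WNT inhibition, the families separated in opposite directions. IRX1, IRX2, IRX3 and IRX5 were higher in high purity wells, and both COUP-TF genes were lower. Limma called 5 of 7 genes (7.84% of all genes), 4 higher (3.62%) and 1 lower (4.22%) in high purity. IRX1 to IRX5 each had all high purity wells above all low purity wells, which held for 15.9% of all genes, and NR2F1 and NR2F2 had all of them below, which held for 15.8%. In these bulk samples, fewer cells with a transcript and less transcript per cell cannot be told apart.

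NR2F1 was at 1.73, 1.73, 2.43 and 2.63 TPM in high purity wells and at 11.7, 14.7, 11.1 and 11.1 TPM in those of low purity on day 4. Its group means of 2.13 ± 0.466 (SD, n = 4) and 12.2 ± 1.69 (SD, n = 4) differed 5.71-fold, with a log2 fold change of -2.06 ± 0.15 (SE) and a limma adjusted p of 5.09e-15. NR2F2, the atrial COUP-TF gene, was at 3.67, 3.83, 4.14 and 5.04 TPM against 6.57, 10.4, 7.42 and 8.63 TPM. The wells of NR2F2 did not overlap, but its log2 fold change of -0.82 ± 0.13 (SE, limma adjusted p 9.85e-07) stayed under the fold threshold. DESeq2 on recovered reads called NR2F2 that day, at -1.00.

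IRX3 was the most abundant of the 8 genes on day 4, at 295, 336, 335 and 319 TPM in high purity wells and 112, 119, 120.2 and 103 TPM in low purity wells. Its log2 fold change was 1.5 ± 0.14 (SE) with a limma adjusted p of 1.77e-12. IRX5, its cluster neighbour, was at 25.3, 31.8, 34.6 and 28.1 TPM against 8.25, 8.11, 9.16 and 6.63 TPM, a log2 fold change of 1.77. IRX1 had the largest log2 fold change of the 7 tested genes that day, 2.37 ± 0.32 (SE, limma adjusted p 5.05e-08), with 27.1, 28.3, 39.0 and 35.6 TPM against 3.04, 7.94, 6.99 and 4.87 TPM. The 3 genes thus showed no overlap between classes. IRX2 had 13.0 to 17.1 TPM against 4.25 to 5.54 TPM and a log2 fold change of 1.40. IRX6 was barely detected, with 4 to 10 reads in each high purity well and at most 1 read in a low purity well. IRX4 stayed low, at 0.436 to 1.28 TPM in high purity and 0.104 to 0.233 TPM in the low purity wells, and was not called by limma (log2 fold change 0.61, adjusted p 0.0751). With edgeR and DESeq2 on recovered reads IRX4 was called, at 2.35 and 2.44.

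On day 6 limma called 5 of 7 genes (8.8% of all genes), with IRX1, IRX2, IRX3 and IRX5 higher in high purity (3.61%) and NR2F1 lower (5.19%). NR2F1 was at 1.26, 1.71, 1.78 and 2.30 TPM in high purity and 11.7, 10.2, 10.0 and 12.1 TPM in the low purity wells, a log2 fold change of -2.10 ± 0.15 (SE, limma adjusted p 3.27e-15). NR2F2 had its highest group mean of the time course in both classes that day, at 34.3, 38.4, 41.0 and 40.6 TPM in high purity and 67.5, 57.0, 57.6 and 63.3 TPM in the low purity wells. Its wells did not overlap, and its log2 fold change of -0.67 ± 0.13 (SE, limma adjusted p 3.23e-05) was under the threshold. IRX4 was still under 4 TPM in every well. Wells of 4 genes lay wholly above in high purity, against 16.2% of all genes, those of 2 genes wholly above in low purity, against 14.5%, and those of IRX4 overlapped.

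On day 8 IRX4 was first called by limma. It was at 25.3, 31.6 and 33.1 TPM in high purity wells and 3.88, 6.71, 6.82 and 4.90 TPM in low purity wells, with no overlap, a log2 fold change of 2.46 ± 0.29 (SE) and a limma adjusted p of 2.07e-09. Limma called 6 of 7 genes (12.2% of all genes), IRX1 to IRX5 higher in high purity (4.66%) and NR2F1 lower (7.5%). IRX3 was at 220.4, 249 and 289 TPM against 31.1, 48.7, 43.5 and 32.1 TPM, a log2 fold change of 2.92 ± 0.15 (SE). IRX5 had a log2 fold change of 3.06 and IRX1 one of 3.38, a 12.0-fold difference of the IRX1 group means. All wells of the 5 Iroquois genes stood apart, against 11.5% of all genes on that side, and so did those of both COUP-TF genes, against 30.7% of all genes on the other side. NR2F1 in high purity was uneven, at 4.40, 1.29 and 2.52 TPM, against 9.80, 8.18, 8.53 and 9.86 TPM in low purity. Without high purity well 2 its log2 fold change moved from -1.33 to -0.99 and the call ended. NR2F2 was at 48.7, 31.1 and 26.8 TPM in high purity, where well 1 stood above the other 2, and at 50.7 to 57.3 TPM in low purity.

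On day 10, which was not tested because high purity had 1 well, the order was the same: IRX4 stood at 57.4 TPM in that well and at 2.93 to 11.1 TPM in the low purity wells. IRX3 was at 186 TPM against 19.5 to 23.0 TPM. NR2F2 was at 27.4 TPM against 44.5 to 48.8 TPM, and NR2F1 at 6.25 TPM against 6.39 to 7.95 TPM.

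On days 13 and 16 limma called all 5 tested Iroquois genes and neither COUP-TF gene. On day 13 the calls (10.8% of all genes) were 5 higher in high purity (4.55%) and 0 lower (6.23%). IRX1 reached a log2 fold change of 3.65 and IRX4 one of 3.29 ± 0.33 (SE), with IRX4 at 79.0 and 82.7 TPM against 5.82 to 10.3 TPM. NR2F1 and NR2F2 had log2 fold changes of -0.37 (limma adjusted p 0.126) and -0.19 (0.399). NR2F1 wells did not overlap and NR2F2 wells did. Iroquois wells lay above for 5 genes, against 15.0% of all genes, and 1 gene lay wholly above in low purity, against 32.5%.

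On day 16 the ventricular marker IRX4 was at 75.9, 84.3 and 95.7 TPM in high purity wells and 10.6, 17.5 and 20.7 TPM in low purity wells. Its means of 85.3 ± 9.95 (SD, n = 3) and 16.3 ± 5.14 (SD, n = 3) differed 5.24-fold, with a log2 fold change of 2.58 ± 0.31 (SE) and a limma adjusted p of 2.85e-09. The atrial marker NR2F2 was at 6.64, 10.5 and 7.96 TPM against 20.8, 17.8 and 15.6 TPM. Both genes separated the classes without overlap, in opposite directions. NR2F2 had a log2 fold change of -0.85 ± 0.15 (SE, limma adjusted p 5.85e-06), under the fold threshold. Without TMM scaling it was -1.04 and NR2F2 was called.

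IRX3 was at 119, 112 and 106 TPM against 13.2, 11.3 and 12.8 TPM on day 16, a log2 fold change of 3.30 ± 0.16 (SE, limma adjusted p 8.11e-22). IRX1 had 19.6 to 22.9 TPM against 1.05 to 1.94 TPM, IRX5 had 6.80 to 8.54 TPM against 0.816 to 1.15 TPM, and IRX2 had 5.12 to 5.92 TPM against 0.826 to 1.35 TPM. NR2F1 had fallen to 0.299 to 0.708 TPM in high purity and 1.41 to 2.43 TPM in low purity wells. Its log2 fold change of -0.87 ± 0.18 (SE, limma adjusted p 7.09e-05) missed the fold threshold on the log2(TPM + 1) scale, and edgeR on recovered reads called it at -1.66. Leaving out low purity well 2 moved it to -1.00, which passes. The calls (13.4% of all genes) were 5 higher (5.76%) and 0 lower (7.65%) in high purity, while all wells of 5 genes lay above (15.6% of all genes) and of 2 genes below (32.1% of all genes).

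**Figure D2:**
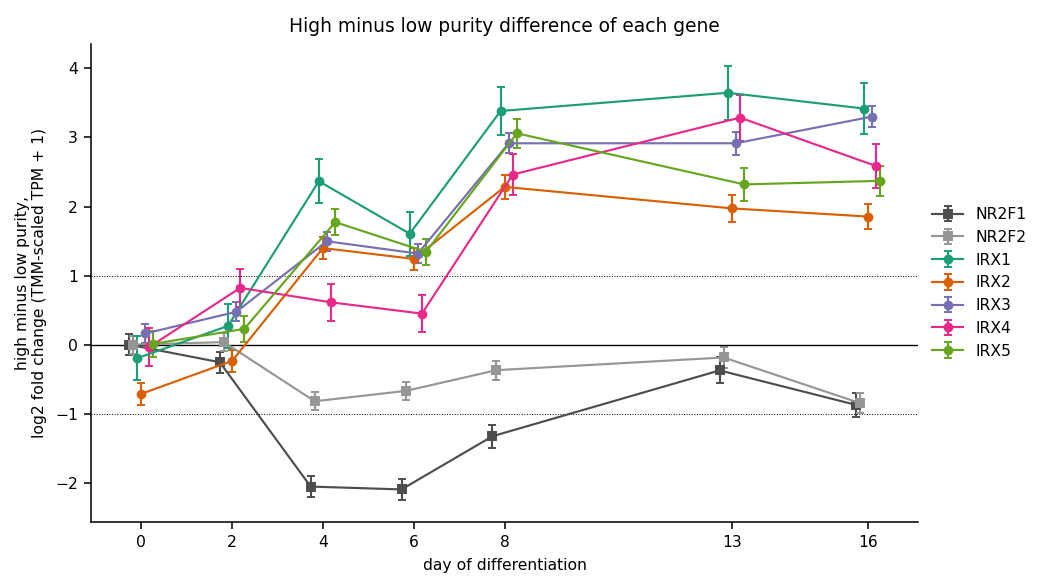
High minus low purity log2 fold change of 7 genes (y axis; limma on TMM-scaled TPM + 1; bars are SE) against day of differentiation (x axis), with dotted lines at the fold threshold of 1. NR2F1 falls below -2 on days 4 and 6, IRX1, IRX2, IRX3 and IRX5 rise above 1 from day 4, and IRX4 crosses from 0.45 on day 6 to 2.46 on day 8.

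Cell types other than cardiomyocytes also moved with these differences, and their part in them was not tested. On day 16 the 9 cardiomyocyte markers summed to 11508 to 13346 TPM in high purity and 3172 to 4587 TPM in the low purity wells, and 8 of 9 were called higher in high purity. The 9 fibroblast and stromal markers summed to 576 to 691 TPM against 9709 to 13190 TPM, with 8 of 9 called higher in low purity. Smooth muscle markers summed to 195 to 205 TPM against 1377 to 1507 TPM, with all 4 tested markers called higher in low purity and MYH11 at 0 in every well. Epicardial markers summed to 783 to 1005 TPM against 910 to 994 TPM, yet 5 of 7 were called higher in low purity. Endothelial markers summed to 38.1 to 44.3 TPM against 157 to 235 TPM, while 4 of 7 were called higher and 2 lower in high purity. CD34 was at 0 in the low purity wells.

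Nerve and surface tissues, which also use Iroquois genes, were compared as well. On day 16 neuroectoderm markers summed to 185 to 228 TPM in high purity and 158 to 178 TPM in the low purity wells, with 1 of 4 tested called higher and SOX1 at 0 in all of them. Surface epithelium and amnion markers summed to 64.6 to 101 TPM against 17.3 to 43.6 TPM, with 4 of 6 tested called higher in high purity. Endoderm markers summed to 77.1 to 484 TPM against 467 to 1249 TPM, with 2 of 6 called higher and 1 lower in high purity. Paraxial mesoderm markers summed to 6.51 to 8.96 TPM against 3.08 to 5.22 TPM, with 3 of 6 called higher and 1 lower.

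On day 4, when NR2F1 and the first Iroquois genes separated, the marker sums ran differently. Cardiomyocyte markers summed to 146 to 197 TPM in high purity and 2280 to 2923 TPM in the low purity wells, with 7 of 9 called higher in low purity. Fibroblast and stromal markers summed to 363 to 536 TPM against 1406 to 1480 TPM (5 of 9 called higher in low purity, 1 higher in high). Smooth muscle markers summed to 50.7 to 63.3 TPM against 261 to 325 TPM (3 of 4 tested higher in low purity). Paraxial mesoderm markers summed to 42.0 to 47.8 TPM against 3.58 to 5.75 TPM (3 of 6 higher in high purity), and neuroectoderm markers to 539 to 652 TPM against 213 to 255 TPM (3 of 4 tested higher in high purity). SOX1 was at 0 in the high purity wells, PAX6 was under 1 TPM in all wells, and DCN was at 0 in high and under 1 TPM in low purity wells. Epicardial markers summed to 1857 to 2057 TPM against 1526 to 1681 TPM (0 higher, 3 lower in high purity of 7), endothelial markers to 220.4 to 279 TPM against 358 to 377 TPM (1 higher, 1 lower of 7). Endoderm markers summed to 136 to 164 TPM against 117 to 140.2 TPM (1 higher, 3 lower of 6), and surface epithelium and amnion markers to 348 to 438 TPM against 234 to 265 TPM (0 higher, 2 lower of 6).

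Levels of the chamber markers on day 16 were also set against troponin T mRNA. IRX4 stood at 25.9 ± 6.71 TPM per 1000 TPM of TNNT2 (SD, n = 3; 20.5 to 33.4) in high purity and 14.9 ± 2.00 (SD, n = 3; 12.9 to 16.9) in low purity wells. NR2F2 stood at 2.51 ± 0.623 (SD, n = 3) against 17.7 ± 6.55 (SD, n = 3) per 1000 TPM of TNNT2. The classes did not overlap in either ratio, and TNNT2 itself was at 3375 TPM in high purity and 1073 TPM in low purity. On day 8 IRX4 was at 10.2 ± 0.777 (SD, n = 3) against 4.11 ± 0.856 (SD, n = 4) on the same scale. These ratios are descriptions, with no test. NR2F2 is also used outside muscle, so its ratio to TNNT2 is not a level per cardiomyocyte. Without the division, the day 16 means differed 5.24-fold for IRX4, higher in high purity, and 2.16-fold for NR2F2, higher in low purity.

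The NR2F2 to IRX4 ratio was taken in each well as a description of these mRNAs in bulk samples. NR2F2 is also used outside muscle, and whether the ratio follows chamber identity was not tested. IRX4 was low on day 6, at 0.238 to 3.00 TPM in high and 0.302 to 1.57 TPM in low purity wells. On the log2 scale with 1 TPM added to each gene, the ratio was 3.96 ± 0.81 (SD, n = 4) in high and 5.09 ± 0.46 (SD, n = 4) in low purity on day 6. By day 8 it was 0.20 ± 0.64 (SD, n = 3) against 3.05 ± 0.40 (SD, n = 4). On day 13 it was -2.10 ± 0.21 (SD, n = 2) against 1.37 ± 0.53 (SD, n = 4), and on day 16 -3.22 ± 0.29 (SD, n = 3) against 0.18 ± 0.66 (SD, n = 3). All high purity wells were below 0 on days 10, 13 and 16, that is with more IRX4 than NR2F2, and low purity wells were above 0 on days 4 to 13 and between -0.38 and 0.91 on day 16. Leaving out well 1 turned the sign on day 8 in high purity, to -0.16, and on day 16 in low purity, to -0.18.

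**Figure D3:**
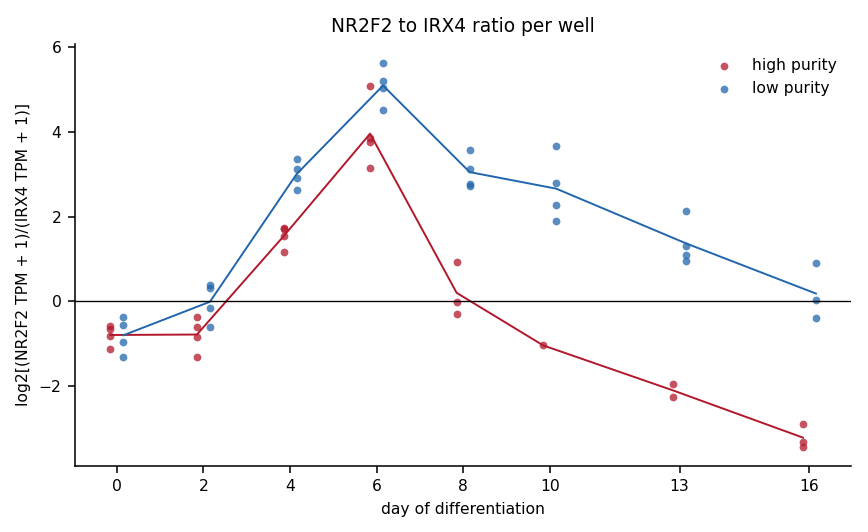
Log2 ratio of NR2F2 to IRX4 with 1 TPM added to each (y axis) by day of differentiation (x axis) in the multi-omic experiment; points are wells and lines join group means. High purity falls from 3.96 on day 6 to -3.22 on day 16, and low purity from 5.09 to 0.18.

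Changes over time were tested within each differentiation between neighbouring days and from day 8 to 16. From day 0 to 2, IRX3 and IRX5 rose in both differentiations, the only 2 of 7 genes that limma called in each. Of all genes, 16.7% were called in high purity (9.66% up, 7.04% down) and 17.9% in low purity (11.0% up, 6.87% down). IRX3 rose by 4.42 in high and 4.11 in low purity on the log2 scale. On recovered reads edgeR and DESeq2 also called NR2F2 up in both differentiations, from 0 reads in every day 0 well to 5 to 25 reads a well on day 2, and NR2F1 in low purity, from 0 reads to 1 to 3. They called IRX4 up in high purity, at 1.24 and 1.26. A pseudocount of 0.1 gave the same 4 calls. From day 2 to 4, 6 of 7 genes rose in high purity, all but IRX4, and 4 rose in low purity, namely IRX1, IRX3, NR2F1 and NR2F2. IRX4 in high purity was at -0.68 with limma and was called down on recovered reads, at -1.31 with edgeR and -1.33 with DESeq2. In low purity IRX4 was at -0.48 with limma. It was called down there with DESeq2 (-2.22) and at a pseudocount of 0.1 (-1.39), but not with edgeR. Of all genes, 13.7% were called in high purity (6.74% up, 6.96% down) and 16.9% in low purity (8.18% up, 8.7% down). NR2F1 rose by 1.59 in high and 3.39 in low purity, and IRX1 by 3.55 and 1.46. Against day 0, set to the floor of 3 reads a well, the NR2F1 mean on day 4 was at least 12.7-fold higher in high and at least 44.1-fold higher in low purity.

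From day 4 to 6 NR2F2 rose by 2.85 in high and 2.70 in low purity, the only gene that limma called up in either (4.53% and 3.87% of all genes called up, of 7.96% and 6.61% called either way). NR2F1 was at -0.22 and -0.18 and was not called. On recovered reads IRX4 was also called up, at 1.15 with edgeR and 1.14 with DESeq2 in high purity and at 2.49 and 2.62 in low purity. IRX1, IRX3 and IRX5 fell in high purity (3.44% of all genes called down) and IRX3 fell in low purity (2.74%). From day 6 to 8 IRX4 rose by 3.78 in high and 1.77 in low purity. IRX1 and IRX3 rose with it in high purity, 3 calls in all, against 1 call in low purity. IRX5 was at -0.91 in low purity (limma adjusted p 0.000275), under the fold threshold. On recovered reads it was called down there, at -1.20 with edgeR and -1.21 with DESeq2. Of all genes, 5.58% were called in high purity (2.87% up, 2.72% down) and 3.31% in low purity (2.03% up, 1.28% down). From day 8 to 16 IRX4 rose again, by 1.69 and 1.57, the only gene that limma called up in either (6.14% and 3.59% of all genes called up, of 11.4% and 6.39% called either way). Limma called NR2F1, NR2F2 and IRX5 down in high purity (5.24% of all genes called down) and NR2F1, NR2F2 and IRX3 in low purity (2.8%). IRX3 in high purity was at -0.94 (limma adjusted p 2.90e-06), under the fold threshold. It was called down there without TMM scaling (-1.16), without day 16 well 1 (-1.03) and without day 8 well 1 (-1.09). IRX2 in high purity was at -0.87 and was called down without TMM scaling (-1.05). In high purity the NR2F1 call ended without day 8 well 1 (-0.89) and the IRX5 call without day 8 well 4 (-0.99).

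The steps IRX5 from day 4 to 6 and IRX3 from day 6 to 8 in high purity, and IRX3 from day 4 to 6 in low purity, stand near the fold threshold of 1. Each lost its call without TMM scaling and when single wells were left out, and the last also with RLE scaling and with DESeq2 on recovered reads, with values of -0.97 to -0.99, 0.78 to 0.95 and -0.96 to -1.00. The rise of IRX1 from day 6 to 8 in high purity was not called at a pseudocount of 0.1 (1.32).

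The difference in change from day 0 between the differentiations was tested directly. Limma called 0 of 7 genes from day 0 to 2 (3.22% of all genes), 5 to day 4 (7.01%), 5 to day 6 (7.17%), 6 to day 8 (10.3%), 5 to day 13 (10.5%) and 5 to day 16 (13.4%). NR2F1 changed less in high purity by day 4 (difference -2.06), as did NR2F1 by day 6 (-2.10) and day 8 (-1.33), and every Iroquois call was positive, that is toward high purity. These comparisons share the day 0 wells, where NR2F1 had 0 reads and IRX5 at most 1, and on recovered reads several of their calls did not pass although the fitted values, which depend on the prior count, mostly stayed beyond 1. With edgeR these were NR2F1 on days 4, 6 and 8 (-2.51, -2.65 and -1.51) and IRX5 on days 4, 6, 8, 13 and 16 (2.04, 1.64, 3.74, 3.17 and 3.32). With DESeq2 they were NR2F1 on days 4 and 6 (-1.73 and -1.87) and IRX5 on days 4, 6 and 13 (2.12, 1.72 and 3.26), and NR2F1 on day 8 was at -0.70. Without high purity day 8 well 2 NR2F1 on day 8 was at -0.99 and lost its call. Other calls were gained. IRX4 on day 4 was called with DESeq2 (2.56) and at a pseudocount of 0.1 (1.80). NR2F1 was called at that pseudocount on days 2 and 16 (-1.48 and -1.52), and on day 16 without low purity well 2 (-1.00). NR2F2 on day 16 was called without scaling (-1.04). For the change from day 8 to day 16, limma called 0 of 7 genes (9.17% of all genes), with 2 at an unadjusted p under 0.05, IRX5 at -0.69 and NR2F2 at -0.48. Both count tools also called 0.

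**Figure D4:**
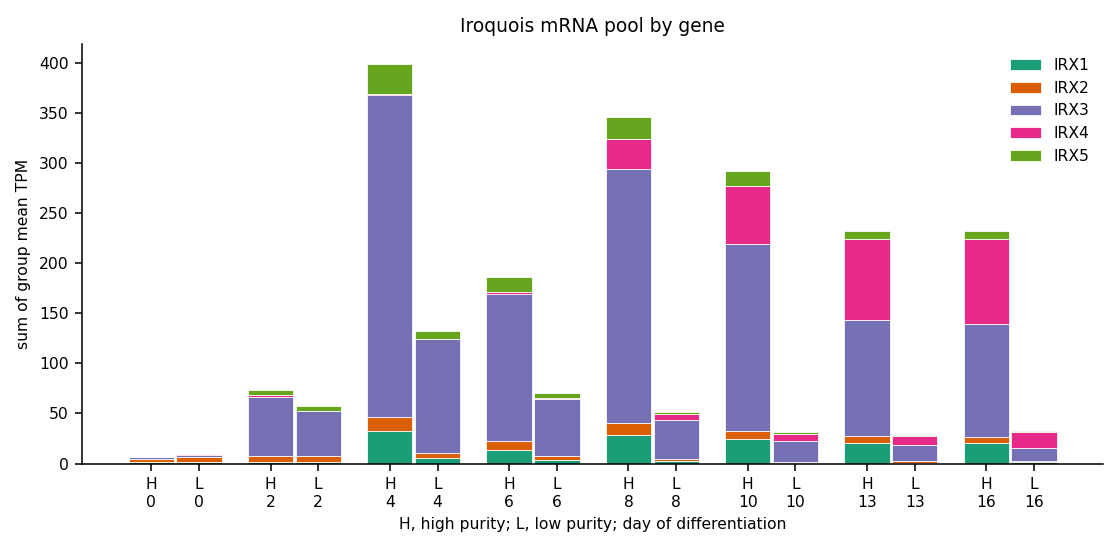
Summed group mean TPM of IRX1 to IRX5 (y axis) for each class and day (x axis; H, high purity; L, low purity), divided by gene. The sum peaks at 399 TPM in high purity on day 4, IRX3 fills most of the pool from day 2 to day 8, and IRX4 takes 36.7% of it in high and 50.3% in low purity on day 16.

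Levels summed over the Iroquois family showed a change of composition as well as of amount. The sum of group means of the 6 genes was 399 TPM in high purity and 132 TPM in low purity on day 4, and 232 TPM against 32.4 TPM on day 16. IRX3 held 80.4% of that pool in high and 85.9% in low purity on day 4. By day 16 IRX3 had dropped to 48.4% and 38.4%, while IRX4 had gone from 0.20% and 0.11% on day 4 to 36.7% and 50.3%. The low purity pool was smaller in every group from day 2 on, but IRX4 took a larger share of it than of the high purity pool on day 16.

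Ordered over the 16 groups, NR2F1 was highest in low purity on day 4 (12.2 TPM), then on days 6 and 8, and NR2F2 in low purity on day 6 (61.3 TPM), then on days 8 and 10. IRX3 and IRX1 were highest in high purity on day 4, at 321 and 32.5 TPM, and then in high purity on day 8. Neighbours in the order overlapped between wells in 9 of 15 steps for NR2F1 and for NR2F2, 13 of 15 for IRX1, 10 of 15 for IRX2, IRX4 and IRX5, and 5 of 15 for IRX3, so the order of IRX1 levels is mostly not resolved. IRX4 was highest in high purity on day 16 and then on day 13.

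Levels across the 16 groups were also compared between genes, as a description with no test, since groups share days and wells. IRX3 and IRX5 had a Pearson r of 0.97, NR2F1 and NR2F2 0.79, and IRX1 and IRX5 0.86, while IRX4 had 0.24 with IRX5 and 0.48 with IRX1. Among 16950 genes with a group mean of at least 5 TPM, the pattern of NR2F2 was most like that of TTC3P1 (0.98), ADAMTS9 (0.97) and LOC107984913 (0.97). IRX4 was nearest to COX6A2 (0.98), a muscle cytochrome oxidase subunit, AFAP1L1 (0.98) and LOC101929056 (0.98). NR2F1 was nearest to NT5C2 (0.94), SYNE3 (0.94) and SMAD2 (0.93), and IRX3 after IRX5 to CYP27A1 (0.96) and HOMEZ (0.94). For IRX1 the genes were UNCX (0.97), MAGEF1 (0.92) and SBK2 (0.92), for IRX2 ORAI1 (0.88), MIR200CHG (0.87) and DUSP5 (0.87), and for IRX5 after IRX3 CYP27A1 (0.93) and RADIL (0.93).

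Other atrial genes did not all follow NR2F2. Of 13 genes on the list, 2 were called higher and 6 lower in high purity on day 4, with a median log2 fold change of -0.57, and 3 and 2 on day 16, with a median of 0.21; the median over all genes was 0.00 on both days. KCNJ3, an atrial potassium channel gene, was lower in high purity on day 16 (-2.55). On day 4, MYL7, the atrial light chain, was at -3.58 and MYL4 at -2.95, while KCNJ5 was at 2.30 and GJA5 at 1.76. HEY1 (2.17), CACNA1D (1.58) and KCNJ5 (1.23) were higher on day 16.

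Ventricular genes were mixed too. Of 10 on the list, 1 was called higher and 1 lower on day 4 (median -0.19), and 4 higher and 1 lower on day 16 (median 0.70). FHL2 (2.01), HEY2, a ventricular repressor (1.71), and PRDM16 (1.62) were higher in high purity on day 16, and the gap junction gene GJA1 was lower (-2.26). MYL2, the ventricular light chain, chosen after its values were seen, averaged 8.15 TPM in high purity and 13.3 TPM in the low purity wells on day 16. On day 4 PLN was lower (-4.06) and MYL3 higher (1.55).

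Genes that make, carry, sense or break down retinoic acid were read next. Of 16, 3 were called higher and 1 lower in high purity on day 4 (median 0.23), and 0 higher and 4 lower on day 16 (median -0.41). RDH10, which makes retinaldehyde, was lower in high purity on day 4 (-2.43) and day 16 (-2.73). CYP26A1, which breaks retinoic acid down, was higher on day 4 (2.91), with CRABP1 (2.17) and STRA6 (1.30). ALDH1A2, the main embryonic retinoic acid synthase, averaged 33.6 TPM in low and 0.931 TPM in high purity wells on day 16 (-4.10), and DHRS3 was at -1.98.

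Genes beside the members were read as neighbours and antisense partners. Of 12 in the tables, 11 were tested; 2 were called higher and 0 lower on day 4 (median -0.07), and 1 higher and 4 lower on day 16 (median -0.09). C5orf38, next to IRX2, was higher on day 4 (1.09) and day 16, and CRNDE, next to IRX5, was higher on day 4 (1.39). NR2F2-AS1 was lower on day 6 (-1.86), day 8 (-2.05) and day 13 (-1.17). MCTP2 (-3.23), MMP2 (-2.28), LPCAT2 (-1.67) and NR2F2-AS1 (-1.01) were lower on day 16. NR2F1-AS1 averaged 0.617 TPM in low purity on day 4, where NR2F1 averaged 12.2 TPM, and shares 158 exon bases with it, 3.66% of NR2F1. Library kits were stranded, but whether counting used strand is not stated.

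In the RNA-only experiment IRX3 was at most 0.765 TPM on day 0 and at 14.2 to 93.9 TPM on day 6 or 7, and the COUP-TF genes were highest in 1 differentiation, low purity H9. With edgeR's quasi-likelihood test, 0 of 8 genes were called at each of the 4 stages (0.0% of all genes each time), and DESeq2 called 0 too. At an unadjusted p under 0.05 there were 0, 1, 1 and 2 genes, against 1.48%, 7.95%, 7.54% and 12.1% of all genes. These were IRX3 at the second stage (log2 fold change 1.22, unadjusted p 0.0199) and the third (1.00, 0.0450), and IRX3 (1.25, 0.0225) and IRX5 (1.58, 0.0457) at the fourth. Their adjusted p-values were 0.571, 0.649, 0.341 and 0.404.

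IRX3 on day 2 or 3 was at 135, 83.5 and 7.88 TPM in high purity H9, IMR90-4 and WTC11, against 60.0, 56.8 and 1.82 TPM in low purity. High purity was above low in 3 of 3 lines at that stage and again on day 4 or 5, at 119, 64.7 and 79.7 TPM against 35.2, 53.4 and 32.1 TPM. On day 6 or 7 it was above in H9 (93.9 against 18.9 TPM) and WTC11 (49.9 against 14.2 TPM) and below in IMR90-4 (30.0 against 41.7 TPM). IRX5 on day 6 or 7 followed the same order of lines, at 32.2, 6.51 and 16.4 TPM against 4.26, 8.70 and 3.78 TPM.

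NR2F1 was at its highest in low purity H9, at 15.9, 59.5 and 33.6 TPM on days 3, 5 and 7, against 0.0367, 0.286 and 0.587 TPM in high purity H9. NR2F2 there was at 1.45, 17.1 and 17.6 TPM against 0.147, 0.284 and 0.649 TPM. In the other lines NR2F1 was at most 3.39 TPM and NR2F2 at most 4.83 TPM, both in WTC11. That NR2F1 value was in high purity on day 4, against 0.550 TPM in low purity, the reverse of the multi-omic order that day. The NR2F2 value was in low purity on day 6, against 2.17 TPM in high purity. The same low purity H9 differentiation had fibroblast and stromal markers summing to 1708 TPM on day 7, against 457 TPM in high purity H9, and cardiomyocyte markers to 106 TPM against 900 TPM, and their part in this was not tested.

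IRX1 went in opposite directions by line. In H9 on day 5 its level was 19.8 TPM in the high and 0.876 TPM in the low purity library, in IMR90-4 on day 5 2.34 against 8.40 TPM, and in WTC11 on day 4 11.1 against 30.3 TPM. In WTC11 on day 4, IRX1, IRX2 (7.42 against 13.8 TPM) and NR2F1 thus reversed the multi-omic order of the classes. IRX3, IRX5 (18.2 against 6.41 TPM) and NR2F2 (0.721 against 0.905 TPM) kept that order. High purity WTC11 was at passage 81 here and at passage 52 in the multi-omic experiment. IRX2 was above in low purity in 3 of 3 lines on day 6 or 7, with high and low purity at 2.82 and 3.25 TPM in H9, 0.611 and 2.13 TPM in IMR90-4 and 6.79 and 8.13 TPM in WTC11. IRX4 was at most 0.963 TPM in every RNA-only library, and these stages end on day 6 or 7, before the IRX4 rise seen in the multi-omic experiment. IRX6 was at most 0.872 TPM. WTC11 at passage 69 stands as low purity in both experiments: its IRX3 on day 2 was at 1.82 TPM in the RNA-only library and at 44.2 TPM as a mean in the multi-omic wells, and the RNA preparation differed between them (total RNA and poly(A)).

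**Figure D5:**
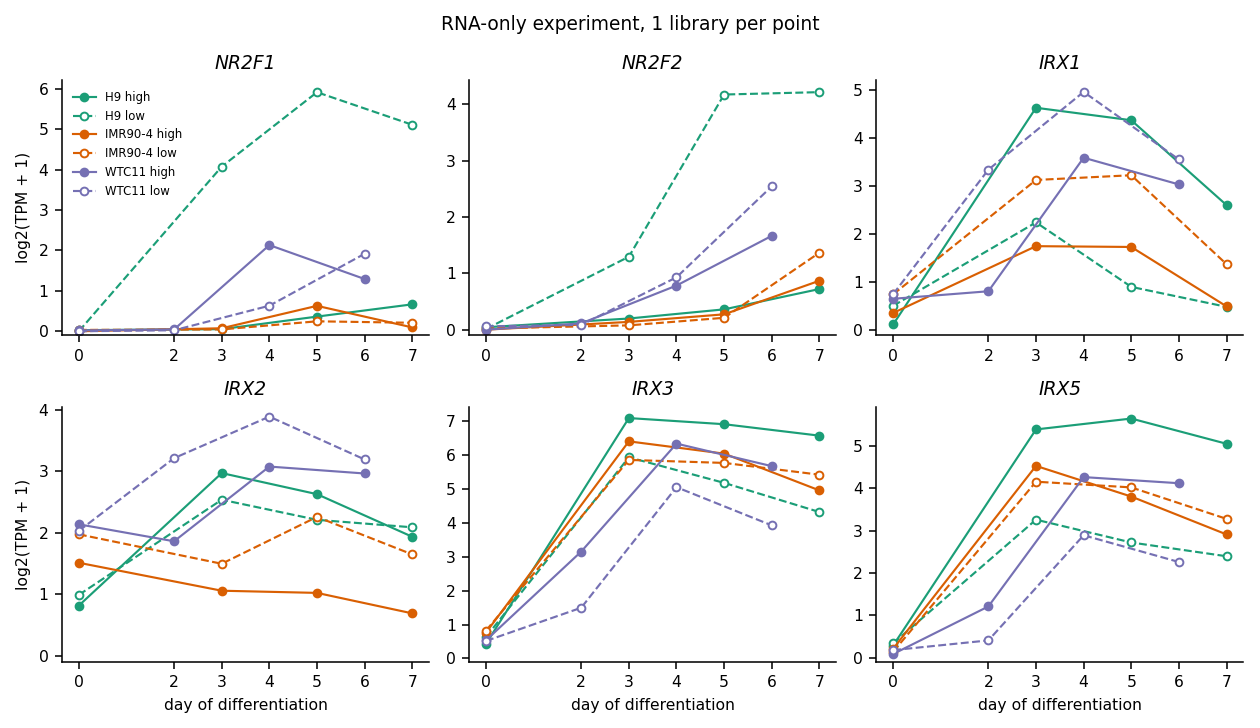
Levels of 6 genes on the log2(TPM + 1) scale (y axis; ranges differ) by day (x axis) in the RNA-only experiment, 1 library per point; filled points with solid lines are high purity and open points with dashed lines are low purity, coloured by line. NR2F1 and NR2F2 are highest in low purity H9, and IRX3 and IRX5 in high purity H9.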

How the data were processed

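RNA was measured in 80 libraries. The authors aligned reads with STAR 2.5.3a and counted with featureCounts 2.0.3 on hg38, per the submitters' processing notes; how TPM was computed, the annotation release and strand in counting are not given in the sources used here. The deposited TPM values were used for the multi-omic experiment, because 50 of 56 of its TPM columns held the reads of a count column of another name and 6 those of none. The deposited counts were used for the RNA-only experiment, after leaving out 6 genes on broken lines. Reads behind the multi-omic TPM were recovered for 37194 genes, with 100% of nonzero values whole within 0.02.

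Multi-omic values were fitted with limma 3.58.1 (R 4.3.3) on log2(TMM-scaled TPM + 1), with 16 group means and 40 residual degrees of freedom, over the 25664 genes that reached 1 TPM in 3 or more libraries. RNA-only counts were fitted with the quasi-likelihood test of edgeR 4.0.16 over 23848 genes, with 12 line and stage means, 4 class terms and 8 residual degrees of freedom. P-values were Benjamini-Hochberg adjusted over all genes tested. Alternatives were another scaling or none, a pseudocount of 0.1, other filters, edgeR and DESeq2 1.42.0 on recovered reads, the well number as a block and leaving out each well. The fits were tested on simulated data. Named were all 8 genes, the 3 genes most like each in pattern among those reaching a group mean of 5 TPM, and at most 3 called genes of each list in each direction. Members and lists were chosen with earlier results of these data known. One gene of the atrial list is counted but not reported by name here.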

Additional observations from a re-analysis of the deposited data

Results flagged for a closer look

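Each gene was tested by Dixon's criterion in each group of 4 wells where its values differed, 79 sets of values in all. The sets share wells between genes and are not independent. Single wells stood apart from the other 3 of their group in 10 of the 79 sets. In 6 of these 10, all IRX6, the other 3 wells had 0 reads. Any read in the remaining well then meets the criterion, and the chance rate of about 1 in 20 sets does not apply. NR2F1 was at 6.39 TPM in low purity well 4 on day 10, where the others were at 7.8 to 7.95 TPM. NR2F2 was at 57.3 TPM in low purity well 1 on day 8, against 50.7 to 51.4 TPM. IRX3 was at 17.6 TPM in low purity well 2 on day 13, against 16.1 to 16.3 TPM, and IRX5 at 2.29 TPM in low purity well 1 on day 10, against 1.57 to 1.60 TPM. The IRX6 values were 0.326 TPM in high purity on day 6, and in low purity 0.131 TPM on day 2, 0.0899 TPM on day 4, 0.1003 TPM on day 8, 0.237 TPM on day 10 and 0.0683 TPM on day 13.

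The change from day 0 differed between the differentiations in 26 limma calls, given here as high minus low purity on the log2 scale. To day 4 the difference was 2.56 for IRX1, 2.11 for IRX2, 1.34 for IRX3, 1.76 for IRX5 and -2.06 for NR2F1. To day 6 it was 1.80 for IRX1, 1.95 for IRX2, 1.16 for IRX3, 1.33 for IRX5 and -2.10 for NR2F1. To day 8 it was 3.58 for IRX1, 3.00 for IRX2, 2.75 for IRX3, 2.5 for IRX4, 3.05 for IRX5 and -1.33 for NR2F1. To day 13 it was 3.84 for IRX1, 2.69 for IRX2, 2.75 for IRX3, 3.32 for IRX4 and 2.31 for IRX5, and to day 16 it was 3.62, 2.57, 3.14, 2.62 and 2.36 for the same genes in that order.

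Lines of the RNA-only experiment went opposite ways in 3 cases, with 1 library on each side, and these differences were not tested. High minus low purity IRX1 on the log2(TPM + 1) scale was 2.39 in H9 and -2.53 in WTC11 at the second stage, and 3.47 in H9 and -1.49 in IMR90-4 at the third. NR2F1 at the third stage was 1.5 in WTC11 and -5.56 in H9.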

How the results depend on the processing

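Some calls of the 7 genes changed near the fold threshold, and others, of genes with few reads, moved far: NR2F1 on day 2 went from -0.25 to -4.59 with edgeR and -4.13 with DESeq2 on recovered reads, fitted against 0 reads in high purity and so no bound. Without the fold threshold 1 gene was called on day 0 and 2 on day 2, where the main count was 0, and 50 over all steps in place of 32. On day 2, 2 genes were called at a pseudocount of 0.1, with edgeR and with DESeq2 on recovered reads. The shares of all genes called under these settings are not given here, so these counts cannot be set against them. The log2 ratio of NR2F2 to IRX4 in low purity on day 6 was 6.15 at a pseudocount of 0.1. Leaving out 1 well gave ratios of -0.16 to 0.45 in high purity on day 8 and -0.18 to 0.47 in low purity on day 16, both changing sign without well 1. It gave 5 to 6 calls on days 8 and 16, 30 to 33 over the steps and 25 to 27 differences in change. Without scaling the median of all genes moved to -0.18 on day 8, -0.13 on day 13 and -0.12 on day 16, with 875 genes called higher and 2578 lower in high purity on day 8 (1197 and 1925 with scaling), 871 and 1977 on day 13 (1168 and 1599) and 954 and 2435 on day 16 (1479 and 1964). With the well number as a replicate block the calls were 5, 5, 6, 5 and 5 on days 4, 6, 8, 13 and 16, 32 over the steps and 26 differences in change, the same counts as without it. Wells of the same number did not deviate together (24 pairs, r -0.02 to 0.03, 5 high purity wells nearest to their own number). In the RNA-only experiment the fit with no replicate block called 0 of the genes at each stage, as did every other alternative run. Depth limits NR2F1, NR2F2 and IRX5 on day 0 and IRX6 throughout, where wells held few or no reads. The cause of these changes was not tested.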
